A study of Mus musculus with 8 samples.

Results

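Fatty acid binding proteins are small cytosolic carriers that hold long-chain fatty acids and related lipids in a barrel-shaped pocket. The genes of the family described here are Fabp1, Fabp3, Fabp4, Fabp5 and Fabp7. They were chosen by symbol, and all 5 were measured among the 18782 genes of the array table. Each was represented by the probe set annotated with its symbol alone, and where there were several by the brightest of them on average. The study asked what loss of the nuclear receptor PPARγ does to lung macrophages as they form after birth. There were 4 groups with 2 arrays in each, and the RNA of an array came from sorted cells pooled from 2 mice. KO d11 and KO d2 cells came from CD11cCre/PPARg fl/fl mice on days 11 and 2 after birth, and WT d11 and WT d2 cells from PPARg fl/fl mice of the same ages, all on a C57BL/6 background. All groups thus carried loxP-flanked Pparg alleles, and the KO groups also carried a Cre recombinase driven by CD11c, so that only cells that turn on CD11c could lose the flanked part. The sort gates differed as well. Day 11 cells were positive for Siglec-F and highly autofluorescent, with CD11b low in WT and high in KO mice. Day 2 precursors were taken from an intermediate Siglec-F and CD11b gate or from a gate low in Siglec-F and high in CD11b, and the labels do not give which of these served which genotype. Deletion and gate therefore cannot be told apart at either age. Age and gate cannot be told apart within either genotype, so each change with age given below is also a change of gate.

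The family is usually named by the tissue in which each protein abounds. Fabp1 is the liver type and Fabp3 the heart and muscle type. Fabp4 is the type of fat cells and macrophages, and its gene is a classical target of PPARγ in fat cells. Fabp5 is the epidermal type, which many macrophages also make, and Fabp7 is the brain type of radial glia, with a preference for polyunsaturated fatty acids. These carriers bring fatty acids to the sites where they are stored, burned or turned into signals, and some hand them to PPAR receptors in the nucleus. Alveolar macrophages live on the surfactant lipid of the air spaces and use this machinery heavily. PPARs bind DNA together with RXR receptors, as a rule at a direct repeat of AGGTCA with a single base between the copies.

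The promoters of Fabp1 and Fabp7 are shown first because these genes had knockout differences that changed most with age within the family, in opposite directions. Sequences are from RefSeq (GRCm38.p6), whose promoter table held 3 of the 5 members, Fabp1, Fabp3 and Fabp7. Each window runs from 250 bases before the transcription start to 50 bases after it and is written along the gene. Capitals mark the searched motifs. These were AGGTCA on either strand, the direct repeat of AGGTCA with any 1 base between the copies, searched on either strand with up to 1 mismatch, and TATAAA on the strand of the gene.
Fabp1, chr6:71199629-71199928, plus strand: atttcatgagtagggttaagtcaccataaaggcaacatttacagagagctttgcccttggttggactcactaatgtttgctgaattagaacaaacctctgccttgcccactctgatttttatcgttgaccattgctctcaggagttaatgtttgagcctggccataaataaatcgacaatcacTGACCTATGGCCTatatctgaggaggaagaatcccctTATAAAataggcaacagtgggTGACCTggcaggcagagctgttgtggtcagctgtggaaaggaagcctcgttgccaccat
Fabp7, chr10:57784673-57784972, plus strand: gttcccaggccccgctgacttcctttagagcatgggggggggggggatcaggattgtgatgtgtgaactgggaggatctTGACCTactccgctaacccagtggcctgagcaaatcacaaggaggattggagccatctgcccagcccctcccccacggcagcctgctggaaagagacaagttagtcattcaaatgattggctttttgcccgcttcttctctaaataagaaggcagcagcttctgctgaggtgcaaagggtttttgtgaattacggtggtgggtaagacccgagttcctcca
The Fabp1 window held AGGTCA on the opposite strand at -67 to -62 and again at -9 to -4 from the start, and TATAAA at -30 to -25. The first of these AGGTCA copies lay inside a match to the direct repeat at -67 to -55, read on the opposite strand. That match had 1 mismatch, T4C, where the motif's base comes first and positions count from 1 at the 5′ end of the motif. A match of this kind was present in 0.554% of the 32851 windows of the table, AGGTCA in 16.3% and TATAAA in 8.32%. The Fabp7 window held AGGTCA once, on the opposite strand at -171 to -166. The Fabp3 window held none of these motifs. These matches describe the letters only, and no binding was measured here.

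The deposited values were RMA signals on the log2 scale, with a median of 5.35 on each array. Detection calls were not used here, so a low signal cannot be split into faint expression and background, and levels of different genes are not compared. The Pparg signal was 11.3 and 11.4 in KO d11 cells, 11.2 and 11.1 in WT d11 cells, 10.6 and 10.7 in KO d2 cells and 10.9 and 11.0 in WT d2 cells. No source used here places its probes relative to the deleted part, so this signal does not check the deletion. All 11 general macrophage and leukocyte markers lay above the array median on all 8 arrays, as did 16 of 17 alveolar macrophage markers. Of these 17, 8 fell, 2 rose and 7 were not called in KO cells at day 11, with a median difference of -0.41. At day 2, 12 fell, 2 rose and 3 were not called, with a median of -0.50. These medians had the same sign as the differences of Fabp4 and Fabp1. The list is not separate from those below, since it holds Pparg itself, Cidec, also a listed PPAR target, and Lpl, also a listed uptake gene. By the test described below, 9.29% of all genes fell and 9.34% rose at day 11, and 11.2% fell and 8.86% rose at day 2. The first KO d2 pool stood apart in interferon response genes, with a median of 9.30 over 11 genes against 5.29 in the second KO d2 pool and 4.54 to 5.17 on the other 6 arrays. The pools also differed in the sexes they held. Xist was 3.46 in KO d11 replicate 1 and 3.38 in WT d2 replicate 2, against 9.85 to 10.7 on the other arrays. The interferon-high KO d2 pool stood apart in genes of the Y chromosome, with Eif2s3y at 4.05 against 6.92 to 9.06 and Uty at 4.22 against 5.78 to 8.15 on the other arrays.

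The family did not move as one in KO cells. Fabp4 was 9.08-fold lower in KO than in WT cells at day 11 and 7.53-fold lower at day 2. Fabp1 was 27.8-fold lower at day 11 and 2.07-fold lower at day 2. Fabp7 was 4.95-fold higher in KO cells at day 11, while its difference at day 2 was not called. Fabp3 and Fabp5 were not called at either age. The test was limma over all 18782 genes, with a call at a Benjamini-Hochberg adjusted p under 0.05. In all, 1 member rose and 2 fell in KO cells at day 11, where 18.6% of all genes were called, 9.34% higher and 9.29% lower. At day 2, 2 members fell, where 20.1% of all genes were called, 8.86% higher and 11.2% lower. No member was called higher at day 2 by limma, although 1 had an unadjusted p under 0.05. The median difference over the 5 members was -0.26 at day 11, against 0.00 over all genes, and -0.55 at day 2, against -0.03. At both ages this median was the uncalled difference of Fabp5, so it does not show a shift of the whole family. With pooled cells, fewer cells expressing a gene and less RNA per cell cannot be told apart. Without the interferon-high KO d2 pool the same 2 members, Fabp1 and Fabp4, fell at day 2. All these values are relative to arrays with equal overall signal. With the arrays centred on 6 reference genes instead, the median difference of all genes was 0.29 at day 11 and 0.22 at day 2, and 93.9% of the called genes were higher at day 11 and 90.5% at day 2, against 50.1% and 44.1% as deposited. The same amount was then added to every gene of a comparison. Fabp1 and Fabp4 were still called lower at both ages and Fabp7 higher at day 11, while Fabp3 was called higher at both ages and Fabp7 at day 2, and the day 11 difference of Fabp5 turned to 0.04.

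**Figure D1:**
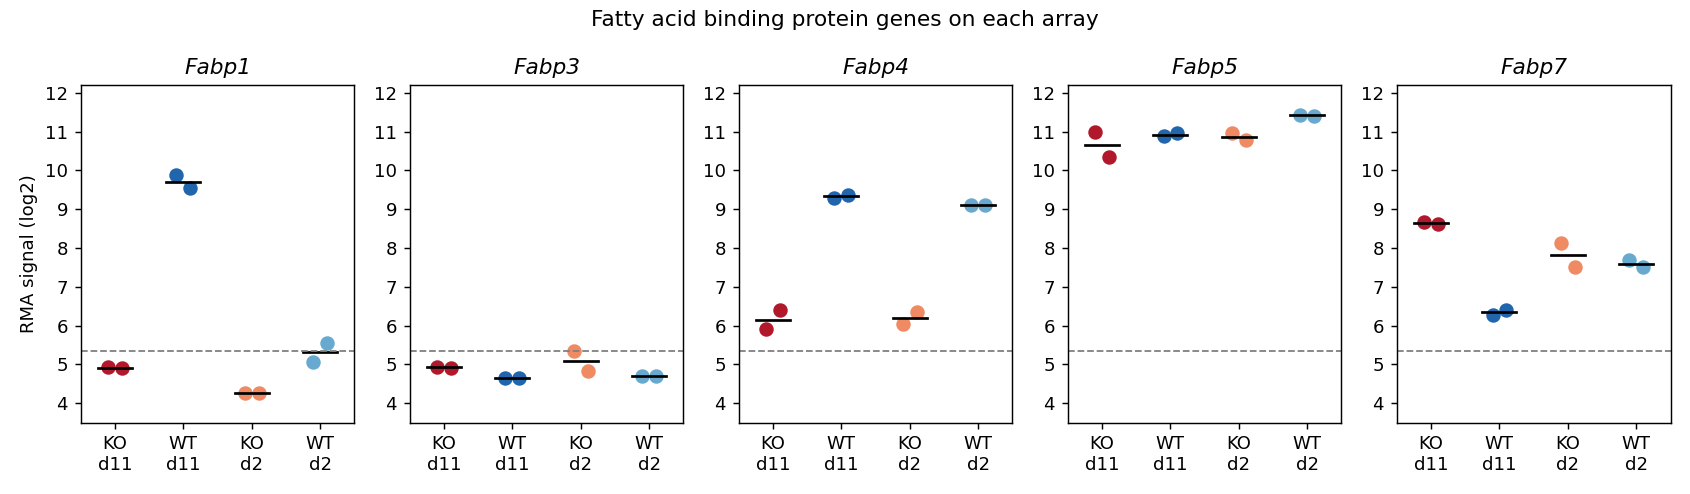
RMA signal (log2) of the 5 genes on each of the 8 arrays, 1 point per array, with the group mean as a black bar and the array median of 5.35 as a dashed line. Fabp4 separates KO from WT at both ages, Fabp1 is high on the 2 WT d11 arrays only (9.54 and 9.89), and Fabp7 is highest in KO d11 and lowest in WT d11 cells.

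Fabp4 was lower in KO cells at both ages. Its signal was 5.90 and 6.39 in KO d11 cells, against 9.30 and 9.36 in WT d11 cells. At day 2 it was 6.05 and 6.34 in KO cells, against 9.11 and 9.10 in WT cells. The 4 KO arrays lay close together and the 4 WT arrays lay close together, with no overlap and a gap far wider than the spread within any group. The log2 difference was -3.18 ± 0.16 at day 11 (SE, limma adjusted p = 1.6e-05) and -2.91 ± 0.16 at day 2 (adjusted p = 1.84e-05). By size this was the 12th most negative difference among 18782 genes at day 11 and the 9th at day 2. The day 11 difference minus the day 2 difference was -0.27 ± 0.22 and was not called (adjusted p = 0.605), with a 95% interval from -0.78 to 0.24. Nor was a change with age called in either genotype, at -0.05 ± 0.16 in KO cells (adjusted p = 0.90) and 0.22 ± 0.16 in WT cells (adjusted p = 0.47). Fabp4 is also made by the endothelium of small vessels and by fat cells. Of 13 endothelial markers measured, 2 were called higher and 1 lower in KO cells at day 11, and 4 were called higher at day 2. The median signal of these markers was 5.46 to 5.64 in KO d11 cells, 5.74 to 5.75 in WT d11 cells, 5.89 to 6.00 in KO d2 cells and 5.75 to 5.76 in WT d2 cells. Of 8 fat cell markers measured, 2 were called lower in KO cells at each age, Plin1 and Ucp1 at day 11 and Plin1 and Pnpla2 at day 2. Plin1, which coats lipid droplets and is also in the list of PPAR target genes, fell by 1.33 ± 0.15 at day 11 (adjusted p = 0.000592) and by 1.03 ± 0.15 at day 2 (adjusted p = 0.00197). The uncalled fat cell hormones Adipoq and Lep were dim throughout, at 4.07 to 4.30 and 3.84 to 3.98 over all 8 arrays. The part of fat cells or endothelium in the difference of Fabp4 was not tested.

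Fabp1 was the member called higher in WT d11 cells than in WT d2 precursors, groups that differ in age and gate. Its signal was 9.89 and 9.54 in WT d11 cells, against 5.07 and 5.56 in WT d2 cells. This was a 21.1-fold rise (log2 difference 4.40 ± 0.16, adjusted p = 5.81e-05), the 3rd largest of 18782 genes. KO cells stayed low, at 4.94 and 4.90 on day 11 and 4.26 and 4.27 on day 2. All 4 KO arrays lay below the array median and below every WT array. The KO difference was -4.79 ± 0.16 at day 11 (adjusted p = 4.53e-06), the 2nd most negative of all genes, and -1.05 ± 0.16 at day 2 (adjusted p = 0.00299). The change in that difference with age was itself called, at -3.75 ± 0.23 (adjusted p = 0.000399). KO cells also rose with age, by 0.65 ± 0.16 (1.57-fold, adjusted p = 0.034), but this call was lost without any 1 of the 4 KO arrays, with adjusted p of 0.123 and 0.116 without KO d11 replicates 1 and 2 and 0.113 and 0.0787 without KO d2 replicates 1 and 2. Fabp1 is best known from liver cells and enterocytes. Of 9 measured markers of those cells, 7 lay below the array median on all 8 arrays, among them Alb, the albumin gene, at 4.11 to 4.29. The median of these 9 markers was 4.42 to 4.49 in KO d11, 4.46 to 4.48 in WT d11, 4.46 to 4.49 in KO d2 and 4.33 to 4.45 in WT d2 cells. Among these 9, 1 was called, at both ages. This was Lgals4, a galectin of the gut lining, which moved in the same direction as Fabp1. It was 6.40 and 6.44 in KO d11 cells against 7.67 and 7.28 in WT d11 cells, and 5.19 and 5.67 in KO d2 cells against 6.91 and 6.93 in WT d2 cells. Its KO difference was -1.05 ± 0.17 at day 11 (adjusted p = 0.00355) and -1.49 ± 0.17 at day 2 (adjusted p = 0.00058). The part of such cells in the difference of Fabp1 was not tested.

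Fabp7 ran the other way. Its signal was 8.67 and 8.62 in KO d11 cells, against 6.27 and 6.41 in WT d11 cells. At day 2 it was 8.13 and 7.51 in KO cells, against 7.68 and 7.51 in WT cells. The day 11 groups were far apart, whereas at day 2 the second KO pool lay level with the lower WT pool. The KO difference was 2.31 ± 0.18 at day 11 (adjusted p = 9.94e-05) and 0.23 ± 0.18 at day 2, which was not called (adjusted p = 0.444, 95% interval from -0.18 to 0.64). At day 2 the higher KO array was the interferon-high pool. The day 2 difference was -0.08 without it, and it was 0.54 and called without the other KO d2 pool (adjusted p = 0.0104). The difference grew with age by 2.08 ± 0.25 (adjusted p = 0.00573), the 6th most positive such change of all genes. In WT cells Fabp7 fell with age by 1.25 ± 0.18 on the log2 scale (adjusted p = 0.00851), and in KO cells it rose by 0.83 ± 0.18 (adjusted p = 0.0185). The fall in WT cells lost its call without any 1 of the 4 WT arrays. Its adjusted p was then 0.08 and 0.0501 without WT d11 replicates 1 and 2, and 0.0809 and 0.0525 without WT d2 replicates 1 and 2. The rise in KO cells lost its call without KO d11 replicate 1 (adjusted p = 0.0785) or replicate 2 (0.0752), and it was 1.14 without the interferon-high KO d2 pool. Of 5 markers of glia and neural crest measured, 2 lay above the array median on all 8 arrays and 3 below it. The median of the 5 lay between 4.70 and 4.84 on each array. Among them 1 was called, Aldh1l1, a marker above the array median, which was lower in KO cells at day 11 (-0.57 ± 0.10, limma adjusted p = 0.00644).

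**Figure D2:**
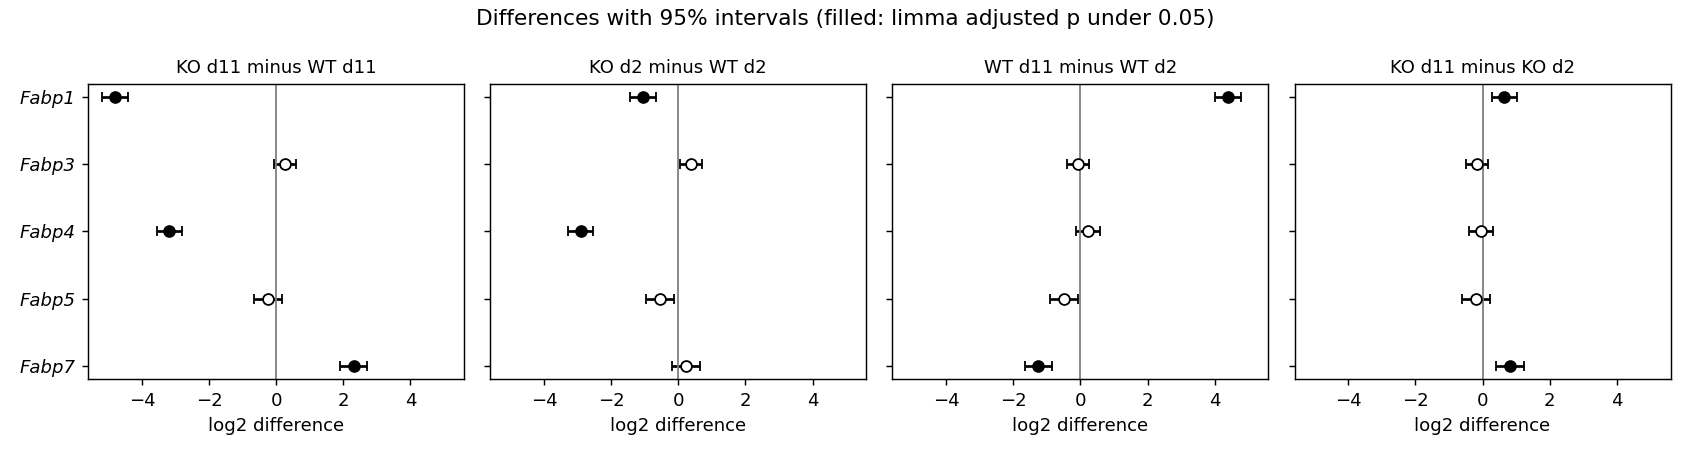
Log2 differences of the 5 genes in 4 comparisons, with 95% intervals from the limma fit (2 arrays per group). Filled points were called at an adjusted p under 0.05. Fabp1 and Fabp4 lie left of 0 in both KO comparisons, and Fabp7 lies at 2.31 at day 11 and at 0.23, with an interval that includes 0, at day 2.

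Fabp5 was bright in every group and was not called in KO against WT cells at either age. Its signal was 10.99 and 10.34 in KO d11 cells, against 10.88 and 10.96 in WT d11 cells. At day 2 it was 10.96 and 10.78 in KO cells, against 11.42 and 11.41 in WT cells. The day 2 groups did not overlap, while at day 11 the 2 KO pools lay on either side of the WT pools. The KO difference was -0.26 ± 0.18 at day 11 (adjusted p = 0.431, 95% interval from -0.68 to 0.17) and -0.55 ± 0.18 at day 2 (adjusted p = 0.0754, 95% interval from -0.97 to -0.12). The KO d11 pools lay farther apart than those of any other group. The first of them was a pool with little Xist, and the part of sex in this difference was not tested. Without either KO d11 pool the day 2 difference stayed at -0.55 but was called, as the estimate of spread shared by the groups had changed. Without KO d11 replicate 1 the day 11 difference was -0.58. Without KO d11 replicate 2 it was 0.07 (adjusted p = 0.762). The change with age was -0.50 ± 0.18 in WT cells (adjusted p = 0.168) and -0.21 ± 0.18 in KO cells (adjusted p = 0.544). Without either KO d11 pool the WT change stayed at -0.50 but was called, again with a changed estimate of the shared spread. In KO cells the change was -0.53 without KO d11 replicate 1. Fabp5 had 3 probe sets of the same annotated transcript. The second gave 11.0 and 10.3 in KO d11 cells and followed the first closely on every array, while the third was dim, at 5.73 to 6.58. Its KO differences were -0.04 at day 11 and -0.43 at day 2, neither of them called (adjusted p = 0.928 and 0.128 over all probe sets). Of 8 keratinocyte markers measured, 7 lay below the array median on all 8 arrays, and at day 2 Sfn was called higher and Trp63 lower in KO cells. The sources used here give no positions for these probe sets, and the signal of near copies of the gene cannot be separated on this basis.

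Fabp3 stayed dim throughout. Its signal was 4.94 and 4.90 in KO d11 cells, against 4.65 in both WT d11 pools. At day 2 it was 5.34 and 4.83 in KO cells, against 4.70 and 4.71 in WT cells. All 8 values lay below the array median, and every KO array lay above every WT array. The KO difference was 0.27 ± 0.14 at day 11 (adjusted p = 0.26, 95% interval from -0.06 to 0.60) and 0.38 ± 0.14 at day 2 (adjusted p = 0.104, 95% interval from 0.06 to 0.71). The highest value was that of the interferon-high KO d2 pool, the one low in Y-linked genes. Without that pool the day 2 difference was 0.13 (adjusted p = 0.328), and without the other KO d2 pool it was 0.64 and called (adjusted p = 0.0011). With either KO d2 pool left out, the day 11 difference stayed at 0.27 but was called, as the shared estimate of spread had changed. The change from day 2 to day 11 was -0.17 ± 0.14 in KO cells (adjusted p = 0.518) and -0.06 ± 0.14 in WT cells (adjusted p = 0.864). In KO cells it was -0.42 and called without KO d2 replicate 2 (adjusted p = 0.00962), and 0.09 without KO d2 replicate 1 (adjusted p = 0.598). A second probe set of Fabp3 gave KO differences of 0.22 at day 11 and 0.45 at day 2, neither called (adjusted p = 0.446 and 0.0899 over all probe sets). Of 11 markers of heart and skeletal muscle measured, limma called none at either age, while 3 at day 2 and 0 at day 11 had an unadjusted p under 0.05. The RefSeq gene table also lists a pseudogene, Fabp3-ps1, and the 2 probe sets cannot be assigned to one or the other from the annotation used here.

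From day 2 to day 11, 2 members rose in KO cells, Fabp1 and Fabp7, where 15.5% of all genes were called, 8.81% higher and 6.71% lower. In WT cells 1 member rose, Fabp1, and 1 fell, Fabp7, where 5.3% of all genes were called, 2.81% higher and 2.49% lower. None fell in KO cells by limma, and none had an unadjusted p under 0.05 in that direction. The KO difference itself changed with age for 2 members, Fabp1 and Fabp7, where 3.27% of all genes were called, 1.29% with a positive and 1.99% with a negative change. The changes of Fabp3 (-0.11 ± 0.20, adjusted p = 0.841), Fabp4 (given above) and Fabp5 (0.29 ± 0.26, adjusted p = 0.638) were not called. KO d11 cells were also set against WT d2 precursors, a comparison that differs in genotype, age and gate and in which 25.6% of all genes were called, 12.5% higher and 13.1% lower. Fabp4 was 7.77-fold lower (-2.96 ± 0.16, adjusted p = 2.06e-05) and Fabp7 was 2.08-fold higher (1.05 ± 0.18, adjusted p = 0.00375). Fabp5 was 1.68-fold lower (-0.75 ± 0.18, adjusted p = 0.0189), a call lost without WT d2 replicate 1 (adjusted p = 0.0891) or replicate 2 (0.0882). Fabp1 differed by -0.40 ± 0.16 and was not called (adjusted p = 0.124, 95% interval from -0.78 to -0.02), except without WT d2 replicate 1 (-0.64, adjusted p = 0.0265). Fabp3 differed by 0.21 ± 0.14 (adjusted p = 0.329). Without either KO d2 pool this difference stayed at 0.21 but was called, as the shared estimate of spread had changed. These comparisons share arrays with those above.

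Fabp4 and Fabp5 lie on chromosome 3 in a stretch that also holds Pmp2, Fabp9 and Fabp12, with Fabp9 and Fabp12 on either side of Fabp4 in the gene order of GRCm38.p6. Fabp1 lies on chromosome 6, Fabp3 on chromosome 4 and Fabp7 on chromosome 10. Of the neighbours, Fabp9, the testis type, was 3.42 and 3.54 in KO d11 cells, against 4.18 and 4.53 in WT d11 cells. Its KO difference was -0.87 ± 0.12 at day 11 (adjusted p = 0.00183) and -0.13 ± 0.12 at day 2 (adjusted p = 0.532), and it rose with age in WT cells by 0.67 ± 0.12 (adjusted p = 0.023). That rise lost its call without WT d11 replicate 2 (adjusted p = 0.0946) or without WT d2 replicates 1 or 2 (0.085 and 0.142). The change of its KO difference with age was not called (-0.74 ± 0.17, adjusted p = 0.0693), although it was without WT d11 replicate 1 (adjusted p = 0.0409) and when the prior was robust and followed the signal level (adjusted p = 0.0377). Its highest values were still below the array median, so this is a difference between dim signals. Fabp12, on the other side of Fabp4, differed by 0.12 ± 0.12 at day 11 (adjusted p = 0.608) and by -0.04 ± 0.12 at day 2 (adjusted p = 0.86). Pmp2, which encodes a protein of peripheral myelin, differed by -0.10 ± 0.08 at both ages (adjusted p = 0.501 and 0.451). Gm9833, a transcribed pseudogene between Fabp5 and Pmp2, was 3.31 to 3.67 over all arrays. It was not called in KO against WT cells, at -0.09 ± 0.08 at day 11 (adjusted p = 0.53) and 0.22 ± 0.08 at day 2 (adjusted p = 0.0827). With age in KO cells it gave -0.28 ± 0.08 (adjusted p = 0.0443), a call lost without either KO d11 array (adjusted p = 0.188 and 0.0894), either KO d2 array (0.104 and 0.136) or either WT d2 array (0.0754). Impa1, an inositol monophosphatase gene beyond Fabp12, was 8.25 to 8.65 over all arrays. Further relatives elsewhere in the genome, the intestinal type Fabp2 and the ileal type Fabp6, were 3.23 to 3.33 and 3.17 to 3.41 on the 8 arrays, below the lower quartile of 4.07. Of 9 measured genes of the wider group of lipid binding proteins outside the members, which adds the carriers of retinoids, 1 was called lower at day 11, Fabp9. None of these 9 was called by limma at day 2, where none had an unadjusted p under 0.05 either. The share of all genes called lower was 9.29% at day 11 and 11.2% at day 2. Centred on reference genes, 5 of these 9 were called higher at day 11 and 2 at day 2, among them Fabp2 at both ages (0.31 and 0.30, adjusted p = 0.00504 and 0.00898) and Fabp12 at day 11 (0.41, adjusted p = 0.0155).

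Genes whose profiles over the 8 arrays lay nearest to those of the called members were found by the root mean square distance between profiles centred on their own means. Nearest to Fabp4 were Ccnd2, which encodes cyclin D2 (distance 0.39 log2 units per array), Acaa1b, a peroxisomal thiolase (0.40), and Grb7, a signalling adaptor (0.40). Ccnd2 was 8.62 and 9.16 in KO d11 cells against 11.2 and 11.3 in WT d11 cells, and 8.58 and 8.30 in KO d2 cells against 10.9 in both WT d2 pools. Nearest to Fabp1 were Htr2c, the serotonin 2C receptor (0.79), Wfdc10 (0.84) and Lipf, the gastric lipase (0.86). All 3 were highest on the WT d11 arrays, as Fabp1 was, but with smaller ranges. Lipf, for example, was 5.98 and 5.17 in KO d11 cells against 8.20 and 7.83 in WT d11 cells, and 3.60 and 3.68 in KO d2 cells against 4.41 and 4.73 in WT d2 cells. Nearest to Fabp7 were Cd63, a tetraspanin of late endosomes (0.26), Nlrc3, of the NOD-like receptor family (0.29), and Cox6a2, the muscle-type subunit of cytochrome oxidase (0.32). Cd63 was 11.3 in both KO d11 pools against 9.39 and 9.48 in WT d11 cells, and 10.9 in both KO d2 pools against 10.8 and 10.7 in WT d2 cells. These distances are descriptions of 8 arrays and carry no test.

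**Figure D3:**
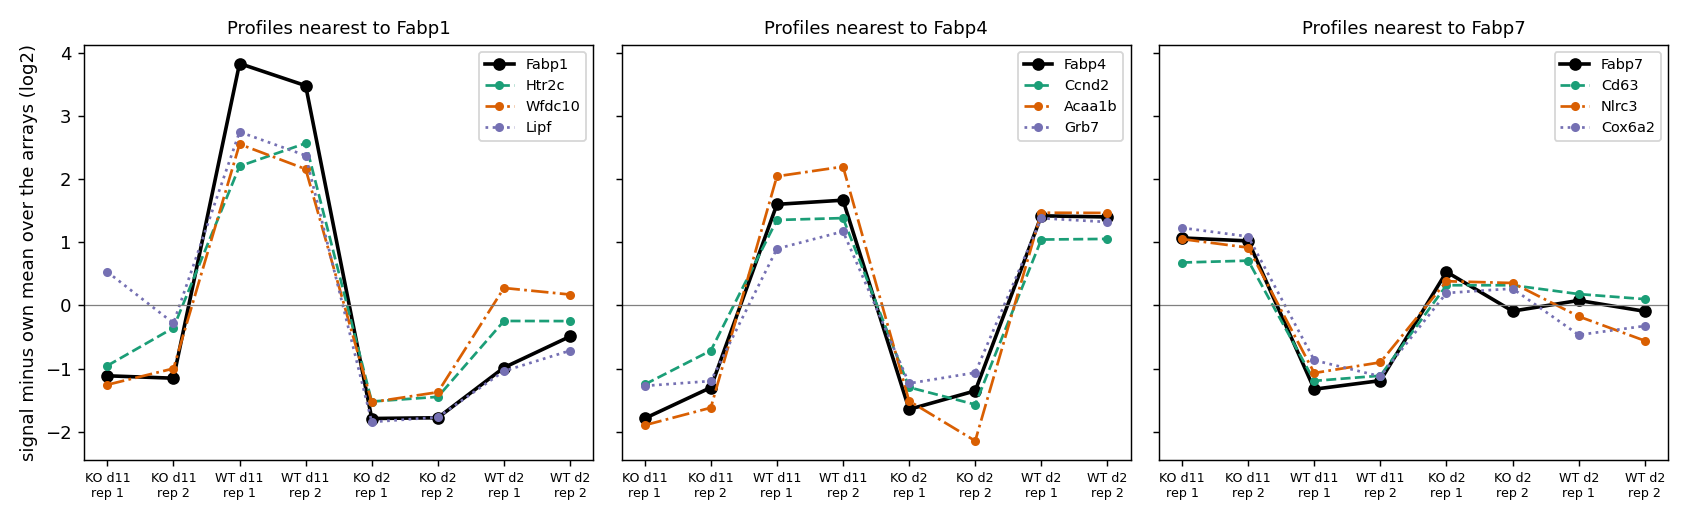
Signal of Fabp1, Fabp4 and Fabp7 (black) and of the 3 genes nearest to each, on each of the 8 arrays, after subtracting each gene's own mean over the arrays (log2). The profiles nearest to Fabp1 peak on the WT d11 arrays, those nearest to Fabp4 are low on all 4 KO arrays, and those nearest to Fabp7 are high in KO d11 and low in WT d11 cells.

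PPAR target genes outside the Fabp family were called lower in KO cells more often than higher. Of 34 measured, 18 fell and 1 rose in KO cells at day 11, with a median difference of -0.35, and 17 fell and 2 rose at day 2, with a median of -0.23. As deposited, 9.34% of all genes were called higher and 9.29% lower at day 11, and 8.86% higher and 11.2% lower at day 2. Centred on reference genes, 10 of the 34 rose and 14 fell at day 11 and 8 rose and 15 fell at day 2. That centring called 12421 of all 18782 genes higher and 802 lower at day 11, and 8203 higher and 862 lower at day 2. The counts that fell were 14 to 19 at day 11 and 15 to 17 at day 2 as single arrays were left out. The count that rose at day 11 was 0 without either WT d2 array, either WT d11 array or KO d11 replicate 1, and 2 without either KO d2 array. The count that rose at day 2 was 0 without WT d2 replicate 2 or KO d2 replicate 2, and 1 without any 1 of the day 11 arrays. Of those that fell, 16 were the same at both ages. The list was drawn up with results of these data known, so its direction is not independent evidence. Cidec, which coats lipid droplets, fell by 4.02 ± 0.12 at day 11 (adjusted p = 2.22e-06) and by 4.03 ± 0.12 at day 2 (adjusted p = 2.29e-06). Acaa1b fell by 3.88 ± 0.19 and 3.30 ± 0.19 (adjusted p = 1.57e-05 and 2.43e-05), and Angptl4, whose secreted product blocks lipoprotein lipase, by 1.65 ± 0.13 and 1.87 ± 0.13 (adjusted p = 0.000112 and 6.06e-05). Ucp3, a mitochondrial carrier, averaged 5.83 in KO d11, 7.78 in WT d11, 4.95 in KO d2 and 5.04 in WT d2 cells, so that its signal, like that of Fabp1, was highest in WT d11 cells. It fell by 1.95 ± 0.18 at day 11 (adjusted p = 0.000211) and gave -0.10 ± 0.18 at day 2 (adjusted p = 0.77), and it rose with age in WT cells by 2.73 ± 0.18 (adjusted p = 0.000339).

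**Figure D4:**
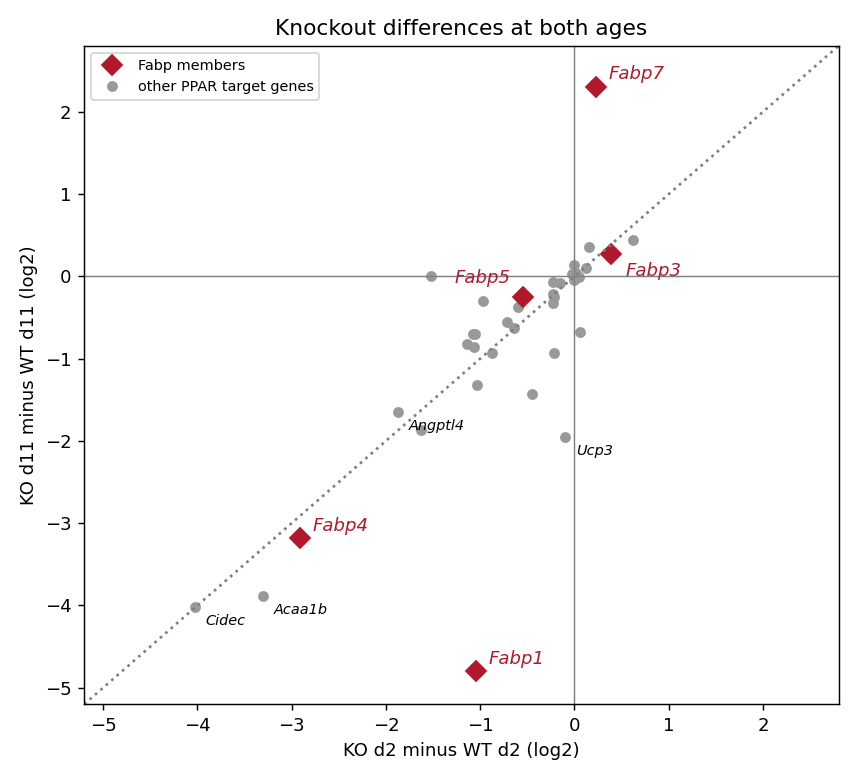
KO minus WT differences (log2) at day 2 (horizontal) and day 11 (vertical) for the 5 Fabp genes (red diamonds) and 34 other PPAR target genes (grey points), with the line of equal differences dotted. Fabp4 lies near that line with Cidec and Acaa1b, Fabp1 lies far below it at -4.79 and -1.05, and Fabp7 lies above it at 2.31 and 0.23.

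Genes that bring fatty acids to these carriers were called in both directions. Of 15 uptake genes measured, 3 rose and 4 fell at day 11 and 2 rose and 4 fell at day 2. The share of all genes called was 9.34% higher and 9.29% lower at day 11, and 8.86% higher and 11.2% lower at day 2. Centred on reference genes, 8 rose and 2 fell at day 11 and 6 rose and 4 fell at day 2. With that centring 12421 of all 18782 genes were called higher at day 11 and 8203 at day 2, and 802 and 862 lower. The count that fell at day 11 was 2 without KO d11 replicate 2 or without either WT d11 array. Lpl, which frees fatty acids from lipoproteins, fell by 0.56 ± 0.06 at day 11 (adjusted p = 0.000507) and by 0.93 ± 0.06 at day 2 (adjusted p = 4.63e-05). Cd36, the main fatty acid receptor of macrophages, fell by 0.315 ± 0.09 at day 11 (adjusted p = 0.0397) and by 0.69 ± 0.09 at day 2 (adjusted p = 0.00102). Cav1, the caveolin gene, rose by 1.17 ± 0.10 and 0.80 ± 0.10 (adjusted p = 0.000167 and 0.00102), and Slc27a1, a fatty acid transporter, by 0.90 ± 0.07 and 0.46 ± 0.07 (adjusted p = 0.000126 and 0.0031). Slc27a6, another transporter, rose by 0.71 ± 0.16 at day 11 (adjusted p = 0.0163), a call lost without WT d11 replicate 1. Its signal was 4.74 and 4.19 in KO d11 cells against 3.66 and 3.84 in WT d11 cells. All these values lay below the array median, so this is a difference between dim signals. Of 22 genes that make, bind or split acyl-CoA, 2 rose and 5 fell at day 11 and 3 rose and 3 fell at day 2. The shares of all genes given above apply here too, and the counts were not tested against them. Centred on reference genes, 12 rose and 3 fell at day 11 and 12 rose and 2 fell at day 2. The number that rose at day 11 was 4 without either KO d2 array and 1 without KO d11 replicate 2 or WT d11 replicate 1, and at day 2 it was 1 without WT d2 replicate 2. Acot4, a thioesterase, was 2.13-fold lower in KO cells at day 11 (adjusted p = 0.0016) and 1.99-fold lower at day 2 (adjusted p = 0.00236). Dbi, the acyl-CoA binding protein, fell by 0.59 ± 0.07 at day 11 (adjusted p = 0.000816) and by 0.42 ± 0.07 at day 2 (adjusted p = 0.00399), where the call was lost with reference-gene centring (-0.18, adjusted p = 0.113). Acsf2, which activates medium-chain fatty acids, fell by 1.31 ± 0.14 at day 11 (adjusted p = 0.000418). Acss1, the mitochondrial acetyl-CoA synthetase, fell by 0.54 ± 0.14 at day 11 (adjusted p = 0.0292) and by 0.76 ± 0.14 at day 2 (adjusted p = 0.00629). Acot7, a thioesterase, rose by 1.17 ± 0.14 at day 2 (adjusted p = 0.000744). Of 6 PPAR and RXR receptor genes, none was called by limma at day 11, where 1 had an unadjusted p under 0.05. At day 2, Rxrb and Pparg fell by 0.34 ± 0.09 and 0.31 ± 0.08 and Ppard rose by 0.27 ± 0.08 (adjusted p = 0.0296, 0.0346 and 0.0452). All 3 calls were lost without WT d2 replicate 1 (adjusted p = 0.127, 0.0632 and 0.223), WT d2 replicate 2 (0.115, 0.191 and 0.0709), KO d2 replicate 1 (0.128, 0.16 and 0.20), WT d11 replicate 1 (0.0521, 0.0581 and 0.0672) or WT d11 replicate 2 (the same values). The calls of Pparg and Ppard were also lost without either KO d11 replicate (0.052 and 0.0643). In a fit of the day 2 arrays alone none of the 3 was called (0.0789, 0.0944 and 0.104). With the arrays centred on reference genes, 5 of the 6 were called higher at day 11 and 2 at day 2, and Pparg and Rxrb were not called at day 2 (adjusted p = 0.603 and 0.436).

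Markers of other cells and states moved with genotype beside these genes. The counts here and for the marker lists given with each member were not tested against all genes. Of all genes, 9.34% were called higher and 9.29% lower at day 11, and 8.86% higher and 11.2% lower at day 2. Of 10 monocyte markers, 9 rose in KO cells at day 2, where the median signal of the list was 9.74 to 9.80 in KO and 7.36 to 7.55 in WT cells. At day 11, 4 rose and 1 fell, with medians of 7.24 to 7.38 in KO and 6.01 to 6.12 in WT cells. All 10 measured genes of dividing cells fell at both ages, with medians of 8.32 to 8.62 in KO d11, 9.76 to 9.79 in WT d11, 8.92 to 8.94 in KO d2 and 9.88 to 9.99 in WT d2 cells. Of 9 neutrophil markers, 7 rose and 1 fell at day 2 and 2 rose and 2 fell at day 11. Mmp8, a neutrophil collagenase, was 11.07 and 11.09 in KO d11 cells against 8.06 and 7.64 in WT d11 cells. The 2 that fell at day 11 were Csf3r and Cxcr2. Their KO differences were -1.27 ± 0.21 and -0.67 ± 0.18 (limma adjusted p = 0.00381 and 0.0399). Of 11 dendritic cell markers, 7 rose at day 2 and 3 at day 11. Clec9a, a receptor of cross-presenting dendritic cells, was 8.78 and 9.28 in KO d11 cells against 6.14 and 5.82 in WT d11 cells. The 8 dendritic cell markers not called at day 11 included Xcr1 and Batf3. Xcr1 was 4.11 and 4.36 in KO d11 cells against 4.08 and 4.25 in WT d11 cells. Batf3 was 5.33 and 5.62 in KO d11 cells against 5.81 and 6.51 in WT d11 cells. Neutrophil markers had medians of 6.29 to 6.34 in KO d2 and 5.11 to 5.26 in WT d2 cells, and dendritic cell markers 5.98 to 6.18 in KO d2 and 4.74 to 4.85 in WT d2 cells. At day 11 these medians were 5.07 to 5.16 in KO and 5.26 to 5.36 in WT cells for neutrophils, and 5.28 to 5.62 in KO and 5.14 to 5.43 in WT cells for dendritic cells. Medians of 13 lung epithelial markers were 6.11 to 6.27 in KO d11, 6.29 to 6.49 in WT d11, 6.63 to 7.12 in KO d2 and 6.85 to 7.03 in WT d2 cells. Of these 13, 1 rose and 3 fell in KO cells at day 11, and 1 rose and 2 fell at day 2. Hopx rose and Ager and Scgb1a1 fell at both ages, and Epcam fell at day 11. The part of these cells in the differences of the Fabp genes was not tested.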

How the data were processed

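The values are log2 signals that the authors deposited for 28874 probe sets and 8 arrays. The submitters' processing notes name RMA and R 2.15.2. RMA adjusts background, equalises the distributions of the arrays and summarises the probes of a set. The columns differed by at most 0.026 at any rank, so a shift of all genes cannot be seen, and the small number of arrays, 2 per group, sets how finely differences can be resolved. Names came from the platform's annotation of probe sets (21159 with a single symbol, 1881 with several, 5834 with no entry), which gave 18782 genes. Linear models with 1 mean per group over all 8 arrays were fitted in R 4.3.3 by limma 3.58.1, which was tested on simulated data, and adjusted p-values are Benjamini-Hochberg over all genes of a contrast. Errors are SE of the log2 difference, with n = 2 arrays per group. Both SE and p-values rest on 1 spread per gene, shared by all 4 groups and moderated over genes by limma. They do not measure the spread of the compared pools alone. Leaving out an array of a group outside a comparison does not change the log2 difference of that comparison, only its SE and p-values. The members, gene lists and tests were chosen with earlier results of these data known. All members are named. Named as well are, of each list, the 3 largest called differences at each age, the relatives of the family, the measured genes beside Fabp4 and Fabp5, and the 3 nearest profiles of each called member. Genes of the marker lists and of the Y chromosome were singled out after their values were seen. Alternatives were a replicate block, fits of the compared groups alone, a trend and robust prior, a filter on dim genes, the mean of probe sets, no collapse to genes, 2 other scalings and each array left out. Plots used matplotlib 3.10.9 and Python 3.11.15.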

Additional observations from a re-analysis of the deposited data

Results flagged for a closer look

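This scan covered the members, their relatives and the largest called differences of the fatty acid, acyl-CoA and PPAR lists. Among these, the KO difference changed between day 11 and day 2 for 4 genes, by limma's test of that change. Named genes of the marker lists and the nearest profiles were not scanned. For Fabp1 the day 11 difference minus the day 2 difference was -3.75 (adjusted p = 0.000399), since its signal was high in WT cells at day 11 alone. For Fabp7 it was 2.08 (adjusted p = 0.00573), with a higher KO signal at day 11. For Ucp3 it was -1.86 (adjusted p = 0.00903), a call lost without WT d2 replicate 1 (adjusted p = 0.0585). For Acsf2 it was -1.25 (adjusted p = 0.0155), a call lost without KO d11 replicate 2 (adjusted p = 0.0527), without WT d11 replicates 1 or 2 (0.0758 and 0.06) and without WT d2 replicates 1 or 2 (0.0846 and 0.0575).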

How the results depend on the processing

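Under the 8 arrays left out in turn and the 8 other settings, Fabp1 and Fabp4 kept their direction and call at both ages, as did Fabp7 at day 11 and the rise of Fabp1 in WT cells. The changes of the KO difference with age of Fabp1 and Fabp7 did so too, although a fit of the compared groups alone was not possible for them. Over these settings the KO difference of Fabp4 was -3.43 to -2.89 at day 11 and -3.06 to -2.67 at day 2, that of Fabp1 -4.97 to -4.50 and -1.30 to -0.80, and that of Fabp7 at day 11 2.24 to 2.60. Of 229 member results under settings other than an array left out, 218 kept direction and call. Quantile normalization once more, the mean of probe sets, all probe sets without collapse and the filter on dim genes changed none of the members' calls, but the filter, which left 10730 genes, removed Fabp3. Centring on reference genes gave called values for Fabp3 of 0.57 at day 11 (adjusted p = 0.0071), 0.63 at day 2 (0.00728) and 0.51 between KO d11 and WT d2 cells (0.00966), and for Fabp7 of 0.47 at day 2 (0.0389). It turned Fabp5 to 0.0382 at day 11 (adjusted p = 0.848) and the change of Fabp4 with age in KO cells to 0.0093 (0.98). It also turned differences that were uncalled as deposited, of Fabp12 to 0.20 at day 2, of Fabp6 to 0.18 at day 11 and 0.18 at day 2, of Fabp9 to 0.11 at day 2, of Pmp2 to 0.19 at day 11 and 0.14 at day 2, of Ucp3 to 0.15 at day 2, and of Gm9833 to 0.20 at day 11, which was then called (adjusted p = 0.0453). Fabp2 gained calls at both ages, Fabp12 at day 11 and Gm9833 at day 2, and Dbi lost its call at day 2. Under it 13223 genes were called at day 11, against 3500 without it, 9065 at day 2, against 3774, and 12579 between KO d11 and WT d2 cells, against 4813. Of the calls between KO d11 and WT d2 cells 92.8% were then higher, against 49.0%, and of those with age in KO cells 68.2%, against 56.8%. With the compared groups alone, Fabp5 was called at day 2 (-0.55, adjusted p = 0.0122) and with age in WT cells (-0.50, adjusted p = 0.0085), Fabp3 at day 11 (0.27, adjusted p = 0.0366), and Fabp7 with age in KO cells lost its call (0.83, adjusted p = 0.0771). The genes called with age were then 1466 in KO cells, against 2915, and 1581 in WT cells, against 996. With a trend and robust prior, Fabp5 between KO d11 and WT d2 cells lost its call (-0.75, adjusted p = 0.0528), and Gm9833 was called at day 2 (0.22, adjusted p = 0.0496). The cause of these changes was not tested.

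With single arrays left out, 206 of 240 member results kept direction and call. At day 11 the KO difference ranged from 0.26 to 0.29 for Fabp3 and from -0.58 to 0.07 for Fabp5. At day 2 it ranged from 0.13 to 0.64 for Fabp3, from -0.64 to -0.46 for Fabp5 and from -0.083 to 0.54 for Fabp7. With age in KO cells the ranges were 0.63 to 0.67 for Fabp1, -0.42 to 0.086 for Fabp3, -0.29 to 0.20 for Fabp4, -0.53 to 0.12 for Fabp5 and 0.51 to 1.14 for Fabp7. With age in WT cells they were -0.54 to -0.46 for Fabp5 and -1.34 to -1.17 for Fabp7. The change of the KO difference with age ranged from -0.37 to 0.14 for Fabp3 and from -0.035 to 0.62 for Fabp5. Between KO d11 and WT d2 cells the ranges were -0.64 to -0.15 for Fabp1, 0.20 to 0.23 for Fabp3 and -1.08 to -0.43 for Fabp5. Uncalled relatives ranged from -0.0575 to 0.29 at day 11 and -0.15 to 0.0635 at day 2 for Fabp12, from -0.0075 to 0.0445 at day 11 for Fabp2 and from -0.17 to 0.038 at day 2 for Fabp6. The number of genes called ranged from 2059 to 3760 at day 11, 2223 to 3605 at day 2, 1541 to 2985 with age in KO cells, 233 to 1292 with age in WT cells, 197 to 942 for the change of the KO difference and 2948 to 5063 between KO d11 and WT d2 cells.

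No label says that the replicate numbers pair the arrays. Deviations of same-numbered arrays from their group means correlated at -0.08 to 0.25 over genes, highest for KO d2 with WT d2. These values cannot show whether same-numbered pools shared a litter or day. With the replicate number as a block, 3415 genes were called at day 11, 3692 at day 2, 2823 with age in KO cells, 975 with age in WT cells, 558 for the change of the KO difference and 4672 between KO d11 and WT d2 cells. The block changed no call of a member, with Fabp4 at day 2 at -2.91 (adjusted p = 2.4e-05), and of the other named values it ended the call of Ppard at day 2 (adjusted p = 0.0599). Each group had 2 arrays, so a single pool can decide the weaker calls, and the dim signals of Fabp3 and the relatives have no detection calls beside them here.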
